A study of Homo sapiens with 6 samples.

Results

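The chromosome 2 compartments of T47D cells, an established estrogen receptor-positive breast cancer line, were followed through 24 h of estrogen treatment and into tamoxifen resistance. The members were the 100 Kb bins of chromosome 2 with a compartment score other than 0 in all 6 libraries, which were 2351 of 2432 bins, out of 27898 such bins of 30376 on the 23 chromosomes measured. Of the 81 bins left out, 11 had a score in some libraries, and the member closest to 0 had an absolute score of 6.18e-05 on the scale used below. The longest run of unknown bases in the chromosome, the centromeric gap from 92326172 to 95326171 in GRCh37 (hg19), divided the members into 892 bins of the p arm and 1459 of the q arm.

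Parental cells went without hormone for 72 h and were then taken either before estradiol (E2), as T0, or at 1, 4, 16 and 24 h of 100 nM E2, as T1, T4, T16 and T24. Tamoxifen-resistant T47D cells (TamR) formed the sixth library. The sample labels call the TamR cells untreated, whereas the study's methods describe culture of resistant cells in phenol-red-free medium with charcoal-stripped serum and 100 nM tamoxifen, so that TamR differed from T0 in its culture history and possibly in the drug as well as in resistance. Each condition had 1 library, and whether several cultures were pooled in it was not stated, so no difference below has a replicate check and no test was made. The 5 parental libraries are 5 conditions, and their range is given as a yardstick rather than as replicate error.

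Contacts between chromosomes separate the genome into compartment A, which is gene-rich, accessible and mostly transcribed, and compartment B, which is gene-poor, compact and often attached to the nuclear lamina. Estradiol acts through the estrogen receptor, a transcription factor that binds estrogen response elements in DNA, and tamoxifen competes with estradiol for that receptor. The score was the first eigenvector of the corrected contact matrix, here multiplied by 1000. A positive score places a bin in A and a negative score in B. The squared scores of a library sum to nearly 1, from 0.998 to 0.999, and its mean lies close to 0, from 0.0130 to 0.0224, so a score ranks a bin within its library and a fall on one chromosome is balanced by rises on others. The files hold no contact counts, and the depth behind a score is unknown.

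Palindromic estrogen response elements occurred in altered blocks of both directions. Each site has the letters GGTCA and TGACC separated by 3 bases of any kind. Apart from those 3 bases a site reads the same on both strands, and no other motif was counted within it. Such a match lay in 7.19% of the 2351 bins, in 11.4% of the 220 bins that went from A in T0 to B in TamR, and in 7.32% of the 164 bins that went from B to A. The sites shown are all those found in the 6 longest blocks of each direction and the 3 in the start bin of GREB1, an estrogen-induced growth regulator, each with 8 reference bases on either side, the match in capitals, the plus strand of GRCh37 and the position of the 13 bases of the match. The labels consider protein-coding genes only, and the site labelled PROKR1 also lies within APLF. A match to these letters is a description of the sequence, and receptor binding was not measured.
DOCK10 intron, chr2:225852375-225852387: tgtccacaGGTCAGTCTGACCaagtgaag
NYAP2 intron, chr2:226480387-226480399: actttcctGGTCACCATGACCtgtattct
between genes, nearest coding start NYAP2, chr2:226826499-226826511: ttgtataaGGTCAGCATGACCcttataac
between genes, nearest coding start IRS1, chr2:227046548-227046560: cttataaaGGTCAAGATGACCtgttcctg
EVX2 exon, chr2:176948668-176948680: gaatgactGGTCAAAATGACCcatacatc
between genes, nearest coding start HNRNPA3, chr2:177710620-177710632: gccttttgGGTCATGCTGACCtggtcttg
between genes, nearest coding start C2orf66, chr2:197692729-197692741: ttttcaaaGGTCAATTTGACCttatataa
HSPD1 exon, chr2:198353888-198353900: tcgtctttGGTCACAATGACCtctccaac
CERS6 intron, chr2:169439214-169439226: ttaaacaaGGTCAGTTTGACCttgtgtcc
between genes, nearest coding start RFX8, chr2:102155429-102155441: ccccacttGGTCACAATGACCaaagttga
between genes, nearest coding start IL1R2, chr2:102590932-102590944: caggggaaGGTCAGAGTGACCttgagcct
between genes, nearest coding start IL1R1, chr2:102663027-102663039: caggaaatGGTCACAGTGACCcctgggtt
GREB1 intron, chr2:11653036-11653048: gataatcaGGTCAAAATGACCttctttca
GREB1 intron, chr2:11664726-11664738: tctcaaaaGGTCATCATGACCttattgtc
GREB1 intron, chr2:11672660-11672672: ggcaactgGGTCATTCTGACCtagaagca
between genes, nearest coding start CRIM1, chr2:35522673-35522685: atatactgGGTCAGAGTGACCtgcaggag
between genes, nearest coding start PARD3B, chr2:205220113-205220125: tataaaaaGGTCACTTTGACCttcatgtg
PROKR1 exon, chr2:68882261-68882273: ggccccgtGGTCACCATGACCctgtgcta
ANTXR1 exon, chr2:69313918-69313930: actgccaaGGTCATTTTGACCactcttct
MEIS1 intron, chr2:66734859-66734871: gctgacacGGTCAGTCTGACCcattgaat
between genes, nearest coding start MEMO1, chr2:32075478-32075490: gatcacgaGGTCAGCCTGACCaacatggt
The first 12 of these sites and the 3 of GREB1 lay in bins that were in A in T0 and in B in TamR, and the last 6 in bins that did the reverse. At the NYAP2 site the score of the bin was 2.15 in T0 and -8.34 in TamR, while at the PROKR1 site it was -5.93 in T0 and 0.438 in TamR.

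The promoters of altered genes were of different sequence types. Those shown run from 250 bases before to 50 after the RefSeq gene start and were placed in GRCh37 by exact match, with every CG dinucleotide in capitals, because CG-rich promoters belong mostly to widely expressed genes.
CUL3, chr2:225450031-225450330, minus strand: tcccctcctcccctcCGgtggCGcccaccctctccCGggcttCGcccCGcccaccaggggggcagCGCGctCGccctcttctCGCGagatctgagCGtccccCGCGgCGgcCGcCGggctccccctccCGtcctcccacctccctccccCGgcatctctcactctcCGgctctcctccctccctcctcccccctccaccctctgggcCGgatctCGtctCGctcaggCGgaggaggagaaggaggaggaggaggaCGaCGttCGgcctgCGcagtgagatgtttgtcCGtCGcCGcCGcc
IRS1, chr2:227664487-227664786, minus strand: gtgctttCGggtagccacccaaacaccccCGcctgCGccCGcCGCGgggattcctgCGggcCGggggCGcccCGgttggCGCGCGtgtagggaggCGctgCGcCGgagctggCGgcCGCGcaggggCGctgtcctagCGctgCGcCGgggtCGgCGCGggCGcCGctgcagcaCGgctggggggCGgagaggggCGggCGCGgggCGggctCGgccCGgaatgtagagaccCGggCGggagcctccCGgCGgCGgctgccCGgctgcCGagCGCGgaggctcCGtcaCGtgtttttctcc
SERPINE2, chr2:224896146-224896445, minus strand: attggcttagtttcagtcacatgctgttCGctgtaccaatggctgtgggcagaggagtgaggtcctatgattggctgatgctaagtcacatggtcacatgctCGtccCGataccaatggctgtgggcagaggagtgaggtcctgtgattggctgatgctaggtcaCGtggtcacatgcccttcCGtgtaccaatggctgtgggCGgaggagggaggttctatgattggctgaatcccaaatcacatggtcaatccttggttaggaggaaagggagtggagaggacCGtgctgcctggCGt
ANTXR1, chr2:69240026-69240325, plus strand: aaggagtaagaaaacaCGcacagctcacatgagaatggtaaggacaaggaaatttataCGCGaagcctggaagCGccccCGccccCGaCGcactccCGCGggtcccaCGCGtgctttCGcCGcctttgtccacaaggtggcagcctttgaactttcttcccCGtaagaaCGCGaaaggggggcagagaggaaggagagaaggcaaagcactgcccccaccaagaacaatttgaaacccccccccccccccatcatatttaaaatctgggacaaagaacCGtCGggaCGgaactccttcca
CUL3, IRS1 and SERPINE2 lay in the longest block that went to B, and ANTXR1 in a block that went to A. The IRS1 promoter held 47 CG dinucleotides, CUL3 31, ANTXR1 19 and SERPINE2 8. Over 1054 promoters of chromosome 2 the median was 24, and it was 25 for the 117 promoters in bins going to B and 20 for the 52 in bins going to A. Promoters with fewer than 10 CG dinucleotides made up 24.2% of all promoters, 23.1% of those going to B and 34.6% of those going to A.

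From T0 to TamR the mean score of chromosome 2 fell. The mean score over its bins was -0.198 in T0, -0.296 in T1, -0.223 in T4, -0.275 in T16, -0.494 in T24 and -0.710 in TamR, a difference between TamR and T0 of -0.512. The TamR mean lay below all 5 parental means, and T24 was the lowest of those. The fall was the third largest of the 23 chromosomes, and on chromosome 5, where it was largest, the difference was -0.776. Chromosomes 8 and 15 were close to chromosome 2, at -0.527 and -0.503. Over the other 22 chromosomes together the mean rose by 0.0561, although as a median over bins the difference was -0.214 there and -0.820 on chromosome 2. By that median chromosome 15 had -0.823. With the median of each library subtracted, which was -0.720 in T0 and -0.429 in TamR, the difference on chromosome 2 was -0.804, and with T24 as the reference it was -0.216.

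**Figure D1:**
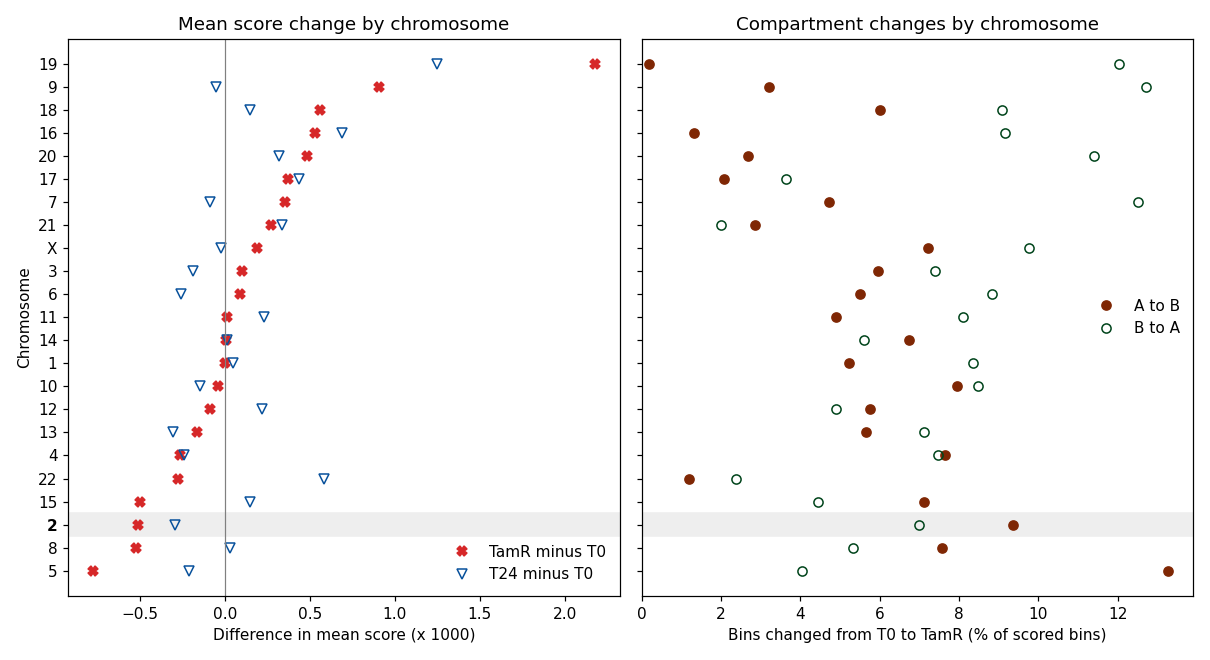
Left, difference in mean score (x 1000) from T0 for TamR (crosses) and T24 (triangles) on each of 23 chromosomes, ordered by the TamR difference. Right, share of scored bins that changed from A to B (filled) and from B to A (open) between T0 and TamR. Chromosome 2 (grey band) has a TamR difference of -0.512, and 9.36% of its bins went to B against 6.98% to A.

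Of the 2351 bins, 220 (9.36%, 95% Wilson interval 8.25 to 10.6) went from A to B between T0 and TamR, against 6.27% of bins on all 23 chromosomes. In the other direction 164 bins (6.98%, 6.01 to 8.08) went from B to A, against 7.67% on all chromosomes. Chromosome 2 thus had a larger share leaving A than the genome and a share entering A close to that of the genome. Intervals here treat bins as independent, which neighbouring bins are not, and are too narrow. Many of the bins that left A were near the border, with a median absolute T0 score of 1.19 against 4.30 over all bins. When bins among the 10% with the smallest absolute scores of any library were left out, 1762 bins remained, 2.50% of which went to B and 4.37% to A, against 1.63% and 4.19% of 21619 bins on all chromosomes. The T0 and TamR scores that define a change also enter this filter, so it removes changed bins by construction.

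TamR lay below all 5 parental libraries in 1280 bins (54.4%), against 43.6% on all chromosomes, and above them in 626 bins (26.6%), against 35% on all chromosomes. The share below was the highest of the 23 chromosomes, with chromosomes 8 and 15 close to it at 53.0% and 52.8%. Across bins of chromosome 2, which are not replicates and within a library share its depth, the Pearson correlation with T0 was 0.985 to 0.992 for the E2 libraries and 0.864 for TamR. The number of separate compartments was 154 in T0, between 119 and 133 in the E2 libraries and 134 in TamR, and their median length was 500 Kb in T0 and 300 Kb in TamR.

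The mean scores of the arms went different ways, although the median difference over bins was negative on both arms. On the q arm the mean score was 0.184 in T0, 0.132 in T1, 0.211 in T4, 0.144 in T16, -0.0800 in T24 and -0.787 in TamR. On the p arm it was -0.823 in T0, -0.998 in T1, -0.934 in T4, -0.961 in T16, -1.17 in T24 and -0.584 in TamR. TamR was therefore the lowest library on the q arm, by -0.971 from T0, and the highest on the p arm, by 0.238, although the p arm difference was -0.397 as a median over bins and -0.0536 after subtraction of each library's median. The share of bins in A fell on the q arm from 48.9% in T0 to 41.8% in TamR and on the p arm went from 42.2% to 47.4%.

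Changes of compartment were divided in the same way. On the q arm 174 bins (11.9%) left A and 71 (4.87%) entered it. On the p arm 46 bins (5.16%) left A and 93 (10.4%) entered it, against 6.27% and 7.67% on all chromosomes. TamR lay below all parental libraries in 59.5% of q arm bins and 46.2% of p arm bins, against 43.6% on all chromosomes. It lay above them in 21.5% and 35%, against 35% on all chromosomes. In these last shares the p arm was close to all chromosomes.

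Bins that kept their compartment also moved. The 220 bins from A to B contributed -0.339 to the chromosome mean and the 164 bins from B to A contributed 0.336, so that these nearly cancelled. The rest of the fall came from 869 bins that stayed in A, 70.3% of which had a lower score in TamR (contribution -0.252), and from 1098 bins that stayed in B, 66.4% of which had a lower score (contribution -0.258). On the p arm the 93 bins entering A contributed 0.635 to the arm mean while each of the other classes contributed a fall, of -0.134 for bins staying in A, -0.148 for bins staying in B and -0.115 for bins leaving A. The rise of the p arm mean was thus carried by a minority of its bins.

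Within the arms the changes were unevenly spread. In 10 Mb windows counted from the gap, the largest rises were on the p arm, of 3.10 between 62300001 and 72300000 and of 2.53 between 32300001 and 42300000, where 32% and 34% of bins entered A. Between them the p arm window from 42300001 to 52300000 fell by 1.69 and had no bin entering A. The largest falls were on the q arm, of -3.33 between 175300001 and 185300000 and of -2.81 between 225300001 and 235300000, where 31% and 33% of bins left A. From 205300001 to 215300000 gains and losses stood side by side, with 27% of bins entering A, 20% leaving it and a mean difference of -0.187. At T24 the same windows differed less from T0, by -0.435, -0.797, 0.339 and -0.638 in the order of the rises and falls given.

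**Figure D2:**
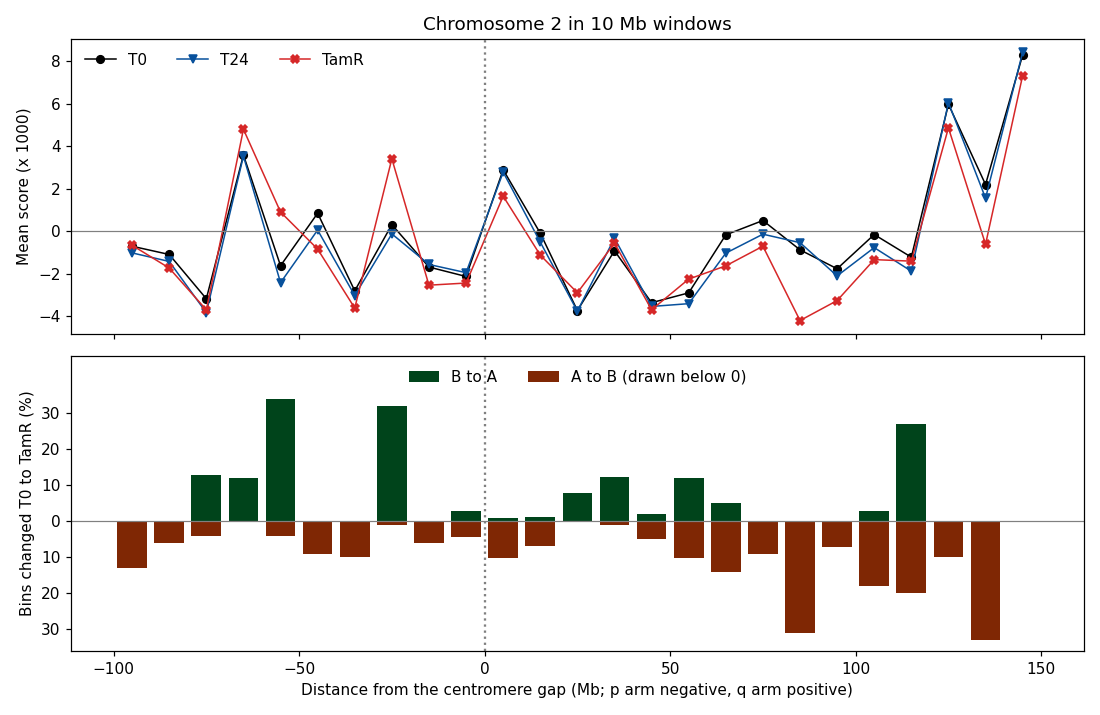
Chromosome 2 in 10 Mb windows by distance from the centromere gap (p arm negative, q arm positive). The upper panel plots the mean score (x 1000) in T0, T24 and TamR, and the lower panel the percent of bins changed between T0 and TamR, with A to B drawn downward. TamR stands above T0 in the p arm windows that rose by 3.10 and 2.53 and below it in the q arm windows that differed by -3.33 and -2.81.

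A block is a run of adjacent scored bins with the same change between T0 and TamR. The 220 bins leaving A formed 75 blocks, 41 of them of a single bin, and the 11 blocks of at least 5 bins held 51.4% of these bins. The 164 bins entering A formed 38 blocks, 18 of a single bin, and the 13 blocks of at least 5 bins held 78.7%. Gains thus formed fewer blocks, with a larger share of their bins in long ones, although the longest block was a loss. On the arms, 10 of the 11 long blocks leaving A lay on the q arm while 8 of the 13 long blocks entering A lay on the p arm. Of the 75 blocks leaving A, 30 were whole T0 compartments, 28 lay at the edge of one and 16 inside one, and of the 38 entering A these numbers were 9, 18 and 10. The T0 and TamR scores chose the blocks, so their difference is a description. The T1 to T24 scores took no part in that choice. Since T0 did, a difference between an E2 library and T0 within a block is also affected by it, mostly near the border.

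The longest block that left A ran from 224800001 to 228400000 on the q arm (36 bins). Its mean score was 2.08 in T0, 2.22 in T1, 2.60 in T4, 2.37 in T16, 1.42 in T24 and -4.75 in TamR. All 36 bins were lower in TamR than in any parental library, and 32 were in A in all 5 parental libraries. The 14 coding genes wholly inside include SERPINE2, a secreted protease inhibitor, CUL3, the scaffold of a family of ubiquitin ligases, DOCK10, NYAP2, an adaptor of neuronal phosphoinositide signalling, and IRS1, which links the insulin and IGF receptors to their downstream kinases. COL4A4 and COL4A3, basement membrane collagen chains that share a promoter region, and MFF, a mitochondrial fission factor, lay near its distal end.

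Scores in this block were not uniform. The lowest TamR value was -8.55 and the highest -0.555, while T0 values ranged from 0.196 to 5.15. The bin with the start of NYAP2 had 3.09 in T0, 2.51 in T1, 2.97 in T4, 2.84 in T16, 1.35 in T24 and -7.71 in TamR, the largest fall among coding genes in bins leaving A. The CUL3 start bin had 5.15, 5.07, 5.08, 4.67, 3.96 and -1.30 in the same order, and the IRS1 start bin 1.83, 1.85, 2.79, 2.29, 1.05 and -4.86. In all 3 the TamR value was the lowest of the 6 and T24 the lowest of the parental 5. The loss was deepest in the middle of the block and smaller on both sides, with the bins around CUL3 on the proximal side. The last bin, at the distal end, had 0.240 in T0 and -1.81 in TamR. With this block left out the q arm difference was -0.823 and that of the chromosome -0.414.

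**Figure D3:**
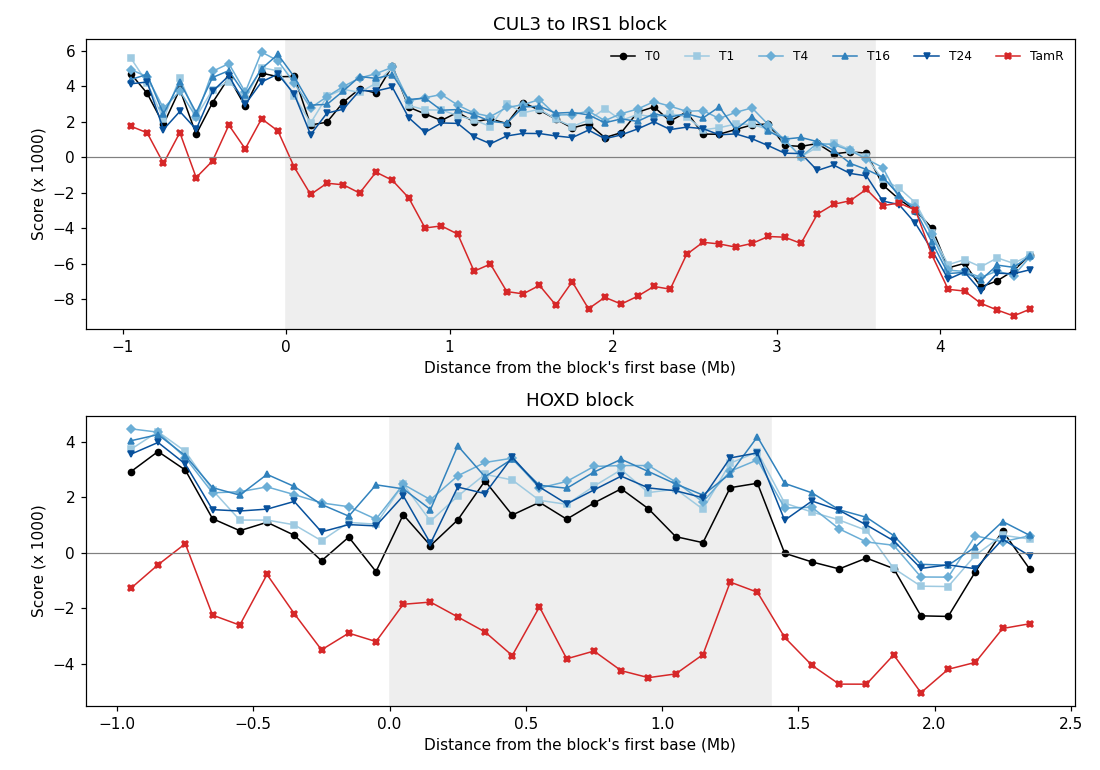
Score (x 1000) of each 100 Kb bin in the 6 libraries against distance from the first base of the block (shaded), with 10 bins on either side, for the block with CUL3 and IRS1 (top) and the block with the HOXD genes (bottom). The TamR line lies below the 5 parental lines across both shaded blocks, and in the lower panel the T0 line lies below most E2 values. The T0 and TamR scores chose both blocks.

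The next block that left A ran from 176800001 to 178200000 (14 bins) and was a whole T0 compartment. It holds EVX2 and the HOXD genes, homeodomain factors of limb and body axis patterning, together with MTX2, a mitochondrial import protein, and HNRNPA3, an RNA-binding protein. Its mean was 1.52 in T0, 2.36 in T1, 2.77 in T4, 2.81 in T16, 2.36 in T24 and -2.94 in TamR. All E2 values were above T0, and all 14 bins were in A in all parental libraries and in B in TamR. The bin with HOXD8 to HOXD13 and EVX2 had 0.253 in T0, 1.14 in T1, 1.91 in T4, 1.56 in T16, 0.334 in T24 and -1.78 in TamR, and that with HOXD1, HOXD3 and HOXD4 had 1.18, 2.04, 2.77, 3.85, 2.37 and -2.32. LNPK and NFE2L2, a regulator of the oxidative stress response whose protein is degraded through CUL3, reach into the block.

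The stretch around HOXD also held 6 of the 12 chromosome 2 bins that entered A at all 4 E2 times. In the 21 bins from 176500001 to 178600000, a window chosen after the values were seen, 15 were in A in T0, 21 in each of T1, T4, T16 and T24, and 0 in TamR. The mean of the window was 0.937 in T0, 1.94 in T1, 2.28 in T4, 2.49 in T16, 1.97 in T24 and -3.21 in TamR. The 4 bins just distal to the HOXD block, with AGPS, an enzyme of ether lipid synthesis, and TTC30B and TTC30A of the ciliary transport machinery, were the longest run on the chromosome that entered A at all 4 E2 times. Their mean was -0.285 in T0, 1.31 in T1, 1.12 in T4, 1.87 in T16, 1.39 in T24 and -4.15 in TamR. The E2 values here were above T0 and the TamR value below it.

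Another block that left A ran from 212400001 to 213600000 (12 bins), mostly within ERBB4, a receptor tyrosine kinase of the EGF receptor family. Its mean was 0.686 in T0, 0.147 in T1, 0.675 in T4, 0.192 in T16, -0.475 in T24 and -4.57 in TamR. The block was near the border in the parental cells, with 12 of its bins in A in T0, 8 in T1, 10 in T4, 6 in T16 and 3 in T24, and no bin was in A in TamR. The ERBB4 start bin had 0.273 in T0, -0.213 in T1, 0.0691 in T4, -0.119 in T16, -0.945 in T24 and -3.73 in TamR.

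Smaller blocks that left A held genes of several functions. From 197600001 to 198500000 (9 bins, with the splicing factor SF3B1, the mitochondrial chaperonins HSPD1 and HSPE1, GTF3C3 and COQ10B) the mean was 1.20 in T0, 0.968 in T1, 0.870 in T4, 0.638 in T16, 0.200 in T24 and -1.30 in TamR. From 169200001 to 169900000 (7 bins, with CERS6, a ceramide synthase, SPC25 of the kinetochore, G6PC2 and ABCB11, the bile salt export pump) it was 0.816, 0.0178, 0.274, -0.306, -1.16 and -2.08. From 102100001 to 102800000 (7 bins, with the kinase MAP4K4 and the interleukin receptors IL1R2 and IL1R1) it was 1.44, 1.04, 1.48, 0.845, 0.281 and -1.36. In these blocks T24 was the lowest parental library, and in the ABCB11 block none of the 7 bins was in A at T24. The first block beyond the 6 longest ran from 200900001 to 201600000 (7 bins), with a mean of 1.23 in T0 and -1.26 in TamR.

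The longest block that entered A ran from 35000001 to 37100000 on the p arm (21 bins) and holds CRIM1, a membrane protein that binds bone morphogenetic proteins, FEZ2 and VIT. Its mean was -4.15 in T0, -4.39 in T1, -4.29 in T4, -4.13 in T16, -4.38 in T24 and 2.99 in TamR. A single bin separates it from a block from 33600001 to 34900000 (13 bins), with RASGRP3, a Ras exchange factor, and FAM98A, whose mean was -5.53, -5.38, -5.65, -5.18, -5.19 and 2.09 in the same order. Most of their bins were well inside B in T0, down to -6.96 and -7.05, but the distal end of the former and the first bin of the latter were near the border, at -0.0457 and -0.338. With the single bin bridged they made 1 block of 34 bins. A block nearer the telomere, from 31300001 to 32100000 (8 bins), had -1.42, -1.03, -0.714, -0.196, -0.722 and 5.33, and holds CAPN14, EHD3, XDH, the enzyme that forms uric acid, and SRD5A2, which converts testosterone to dihydrotestosterone. In the 58 bins from 31300001 to 37100000, a window chosen after the values were seen, between 12 and 19 bins were in A in the parental libraries and 57 in TamR, and TamR was the highest library in all 58.

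The other long gains of the p arm lay nearer the gap. From 68100001 to 69600000 (15 bins) the mean was -3.79 in T0, -3.32 in T1, -3.50 in T4, -3.49 in T16, -3.96 in T24 and 1.85 in TamR, and all 15 bins were in B in all parental libraries. This block holds 15 coding genes, among them PPP3R1, the regulatory subunit of calcineurin, PLEK of platelets, BMP10 of the heart, the gastrokines GKN2 and GKN1 of the stomach, and ANTXR1, a collagen-binding receptor. From 65800001 to 66800000 (10 bins) it was -5.43, -5.30, -5.38, -5.22, -5.28 and 2.09, and the block reaches into MEIS1, a homeodomain cofactor of HOX proteins. In the 38 bins from 65800001 to 69600000, again chosen after the values were seen, no bin was in A in any parental library and 30 were in TamR, with TamR the highest library in all 38.

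The longest gain of the q arm ran from 205000001 to 206900000 (19 bins) and holds PARD3B, a cell polarity protein, and NRP2, a co-receptor of semaphorins and vascular endothelial growth factors. Its mean was -1.46 in T0, -1.42 in T1, -1.27 in T4, -1.57 in T16, -2.02 in T24 and 2.29 in TamR. Just proximal to it the bins of CD28, CTLA4 and ICOS, costimulatory and inhibitory receptors of T cells, stayed in A but were higher in TamR than in any parental library, at 4.78, 4.09 and 4.45 against 2.31, 1.73 and 1.57 in T0. The first block beyond the 6 longest, from 207600001 to 208400000 (8 bins, with KLF7), had -1.53 in T0 and 1.97 in TamR.

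**Figure D4:**
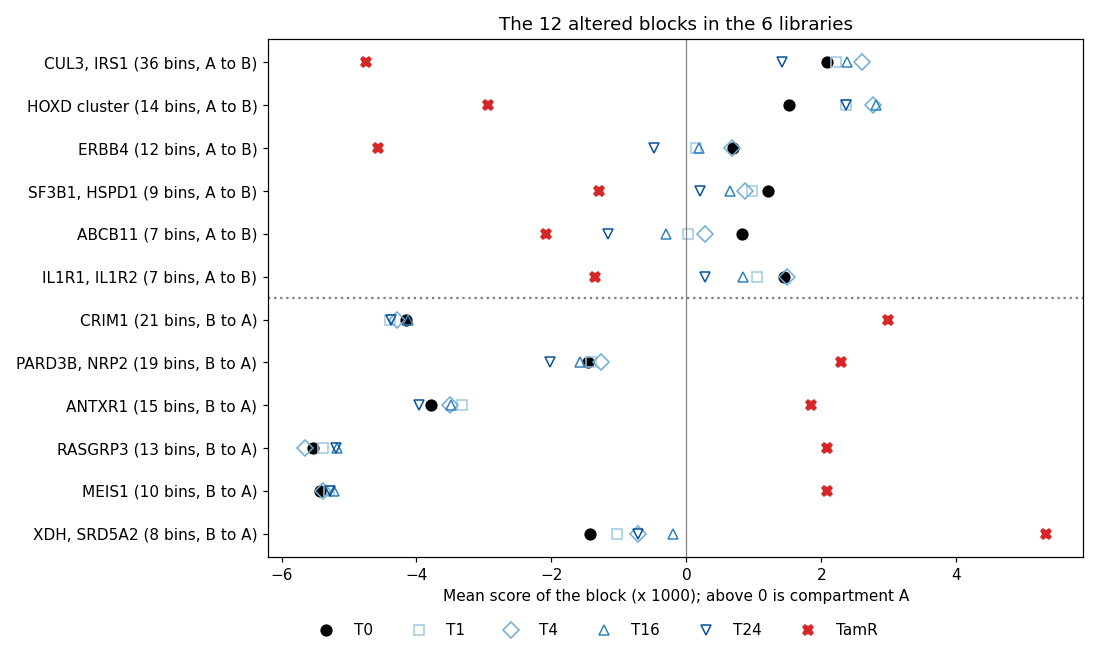
Mean score (x 1000) of the 6 longest A to B and 6 longest B to A blocks of chromosome 2 in the 6 libraries, labelled with genes inside or reaching into them. TamR lies apart from the 5 parental libraries in each block, and T24 is the lowest parental value in 5 of the upper 6. The T0 and TamR scores chose the blocks, and T24 had the lowest median as a library, at -1.08.

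The E2 course changed fewer bins than TamR. Relative to T0, the compartment differed in 88 bins at T1 (3.74%, against 3.16% on all chromosomes), 90 at T4 (3.83%, against 3.05%), 105 at T16 (4.47%, against 3.80%) and 139 at T24 (5.91%, against 5.17%). Each share was nominally above that of all chromosomes, but most were not told apart from it. The Wilson intervals at T1 (3.05 to 4.59), T16 (3.70 to 5.38) and T24 (5.03 to 6.94) included the share of all chromosomes. At T4 the interval (3.12 to 4.68) lay just above that share. As before, these intervals treat bins as independent and are too narrow. At T24, 118 bins had gone to B and 21 to A, whereas at T4 36 had gone to B and 54 to A. The share of chromosome 2 in A was 46.3% in T0, 45.4% in T1, 47.1% in T4, 45.8% in T16, 42.2% in T24 and 43.9% in TamR. T24 was lower as a library, with 44% of all bins in A against 46.2% in T0, and with the border at each library's median its chromosome 2 share was 49.8% against 50.7% in T0.

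Over the 4 E2 times, 962 bins stayed in A (40.9%) and 1187 in B (50.5%), 27 went to B at every time (1.15%) and 12 to A (0.510%). The remaining 163 bins (6.93%, against 5.70% on all chromosomes) differed from T0 at some times and not others, 7.95% of the q arm and 5.27% of the p arm. Of these, 57 differed at T24 alone, 53 of them in B. These bins were close to the border, with a median absolute T0 score of 0.667 for the mixed class, 0.252 for bins going to B and 0.255 for bins going to A, against 4.75 for bins staying in A. The E2 and TamR differences share the T0 library, so their values are set side by side here without a measure of likeness.

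Besides the run with AGPS, the longest runs entering A at all 4 E2 times were 2 bins from 31300001 to 31500000 with CAPN14 and EHD3, at -0.237 in T0, between 0.410 and 1.09 in the E2 libraries and 3.93 in TamR, and 1 bin reached by LNPK next to the HOXD block. The former lie in the SRD5A2 block, where TamR was also above T0. The longest runs leaving A were of 2 bins each. From 157500001 to 157700000, with no coding gene, the mean was 0.372 in T0, -0.520 in T1, -0.646 in T4, -0.969 in T16, -1.41 in T24 and -2.08 in TamR. Within ERBB4, from 212400001 to 212600000, it was 0.427, -0.326, -0.412, -0.313, -1.35 and -3.24, and at PPP1R21, from 48600001 to 48800000, it was 0.170, -0.556, -0.491, -0.706, -1.31 and -1.17. The longest mixed run, 11 bins from 149900001 to 151000000 with LYPD6 and MMADHC, a cobalamin-processing protein, had 0.491 in T0, 0.00260 in T1, 0.480 in T4, 0.207 in T16, -0.881 in T24 and 2.29 in TamR. There T24 was the lowest library and TamR the highest. In the next longest, from 152900001 to 153500000 (6 bins, with STAM2), and from 213100001 to 213700000 (6 bins, reaching into ERBB4), T24 was at -0.659 and -0.546 and TamR at -3.41 and -3.97.

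More coding genes had a start bin that left A than one that entered it, but most of these genes were in A in T0. Of 1235 coding genes with a scored start bin, 942 were in A in T0 and 873 in TamR, 128 (10.4%) left A and 59 (4.78%) entered it. On the q arm 91 of 769 genes (11.8%) left A and 24 (3.12%) entered it. On the p arm these were 37 (7.94%) and 35 (7.51%) of 466. On that arm 366 of the 466 genes were in A in T0, so more of them could leave A than enter it. The shares are of all genes and not of those able to change in each direction, so they do not compare rates. TamR was below all parental libraries for 790 of the 1235 genes (64.0%). Lists of 165 chromosome 2 genes, grouped by function, had 27 genes leaving A (16.4%) and 8 entering it (4.85%). Counted by bins, 16 of their 136 start bins left A and 8 entered it, against 92 and 42 of 781 for all coding genes. The lists were chosen with earlier results of these data known, so their shares are descriptions. The median difference between TamR and T0 was -1.14 for the listed genes and -1.25 for all coding genes. Genes of a cluster share bins, so a count of genes is larger than the count of separate changes.

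Among 20 genes of estrogen and growth factor signalling, 3 left A (15%, against 10.4% of all coding genes) and 2 entered it (10%, against 4.78%). With so few genes these shares are not told apart from those of all coding genes. The median difference was -0.0880, against -1.25 for all coding genes. GREB1 had 5.10 in T0, 5.01 in T1, 5.54 in T4, 5.36 in T16, 4.56 in T24 and -0.326 in TamR, in a bin it shares with the start of E2F6, and IRS1 and ERBB4 are given above. SRD5A2 had -3.56, -3.03, -2.75, -1.04, -2.31 and 5.37, the largest rise among coding genes in bins entering A, and NRP2 had -1.26, -1.36, -1.31, -1.39, -1.94 and 2.54. Other members kept their compartment. NCOA1, a coactivator of nuclear receptors, had 6.46 in T0, 3.92 in T24 and 3.17 in TamR, CYP1B1, which hydroxylates estradiol, had 3.64, 1.90 and 4.68, and IGFBP2 and IGFBP5, which bind insulin-like growth factors, lay within the parental range in TamR at 7.59 and 6.88.

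Of 22 cell cycle, replication and repair genes 18 were in A in T0 and 16 in TamR. CUL3 and SF3B1 left A (9.09%, against 10.4% of all coding genes) and no member entered it (against 4.78%). A TamR score below all parental libraries was found for 17 members (77.3%, against 64.0% of all coding genes). The median difference was -1.42 against -1.25. CDCA7, which acts with the remodeller HELLS in DNA methylation, had 6.43 in T0, between 4.39 and 5.11 in the E2 libraries and 2.76 in TamR, and ORC2 of the origin recognition complex had 4.93, 5.06, 5.51, 4.90, 4.71 and 2.06. RRM2, a subunit of ribonucleotide reductase, had 6.81 in T0, 8.42 in T24 and 5.25 in TamR. Lower scores within A were the common pattern of the chromosome, where 70.3% of bins staying in A fell.

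All 10 listed genes of the HOXD cluster left A, in 2 bins. Of 27 developmental transcription factors 1 left A (3.70%, against 10.4% of all coding genes) and 3 entered it (11.1%, against 4.78%), which are few genes. IKZF2 had 0.970 in T0, -0.327 in T24 and -0.649 in TamR. MEIS1 had -4.27 in T0, -3.89 in T1, -3.79 in T4, -4.00 in T16, -3.94 in T24 and 0.998 in TamR, EN1, a factor of the midbrain and limb, had -3.75, -3.54, -3.55, -3.19, -3.03 and 0.714, and KLF7 had -1.06, -0.204, -0.00176, -0.667, -1.37 and 2.28. NEUROD1, a neuronal and endocrine factor on the q arm, stayed in B and had -0.237 in T0, -1.04 in T24 and -5.84 in TamR. DLX1 and DLX2, which share a bin, stayed in A with 6.86 in T0 and 7.15 in TamR.

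Of 20 extracellular matrix, adhesion and TGF-beta superfamily genes 5 left A (25%, against 10.4% of all coding genes) and none entered it (against 4.78%). By bins, 4 of 19 left A, against 92 of 781 for all coding genes. The list was chosen with earlier results of these data known, so the difference from all genes is only a description. Of the 5 genes that left A, SERPINE2, COL4A3 and COL4A4 lie in the longest altered block. COL4A3 and COL4A4 share a bin with 0.780 in T0, -0.742 in T24 and -3.21 in TamR, SERPINE2 had 1.82, 1.28 and -2.10 at its annotated start, COL5A2, a fibrillar collagen chain, had 1.12, -0.0388 and -0.186, and ACVR1, a receptor of bone morphogenetic proteins, had 0.650, 0.396 and -0.418. TamR was below all parental libraries for 15 of the 20 (75%, against 64.0% of all coding genes). The integrins ITGA4 and ITGAV stayed in B and had -5.73 and -3.15 in TamR against -1.18 and -0.632 in T0, whereas ITGA6 had 4.51 against 3.65, and LTBP1, which stores latent TGF-beta in the matrix, had 5.10 against 1.82. The members that were higher, ITGA6 and LTBP1 among them, numbered 3.

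Of 18 neuronal channel and very long genes 1 was in A in T0 and 2 in TamR. Of these genes 1 left A (5.56%, against 10.4% of all coding genes) and 2 entered it (11.1%, against 4.78%). CACNB4, a calcium channel subunit, left A with 0.830 in T0, -0.0827 in T24 and -2.32 in TamR. PARD3B entered A with -0.646 in T0 and 2.50 in TamR, and NCKAP5 with -0.104 and 1.04, although its mean over the gene was -0.222 in TamR. KCNJ3, a potassium channel gene, had -0.696 in T0, -2.46 in T24 and -7.79 in TamR, while the sodium channel genes SCN2A and SCN3A, in 1 bin, had -5.22, -5.94 and -5.89.

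In the interleukin 1 family IL1R1 and IL1R2 left A in a shared bin, with 1.20 in T0, 0.530 in T1, 1.13 in T4, 0.0323 in T16, -0.419 in T24 and -0.986 in TamR, and IL1A and IL1B stayed in A with 4.26 in T0 and 3.46 in TamR. Among lymphocyte, chemokine receptor and apoptosis genes CASP8 and CASP10, initiator caspases in a shared bin, left A with 3.03 in T0, 2.11 in T24 and -0.576 in TamR, although the mean over the whole of CASP8 was 1.00 in TamR. The neighbouring CFLAR, an inhibitor of CASP8, stayed in A with 5.53 in T0 and 3.60 in TamR. Of the metabolic genes ABCB11 left A, with 1.38 in T0, -0.390 in T24 and -1.0 in TamR, and XDH entered it, with -2.24, -1.46 and 6.13. The UGT1A genes, which conjugate bilirubin and steroids, stayed in A, in bins with 5.94 and 4.29 in T0 and 4.80 and 2.36 in TamR. No gene of the REG and crystallin clusters changed compartment between T0 and TamR.

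**Figure D5:**
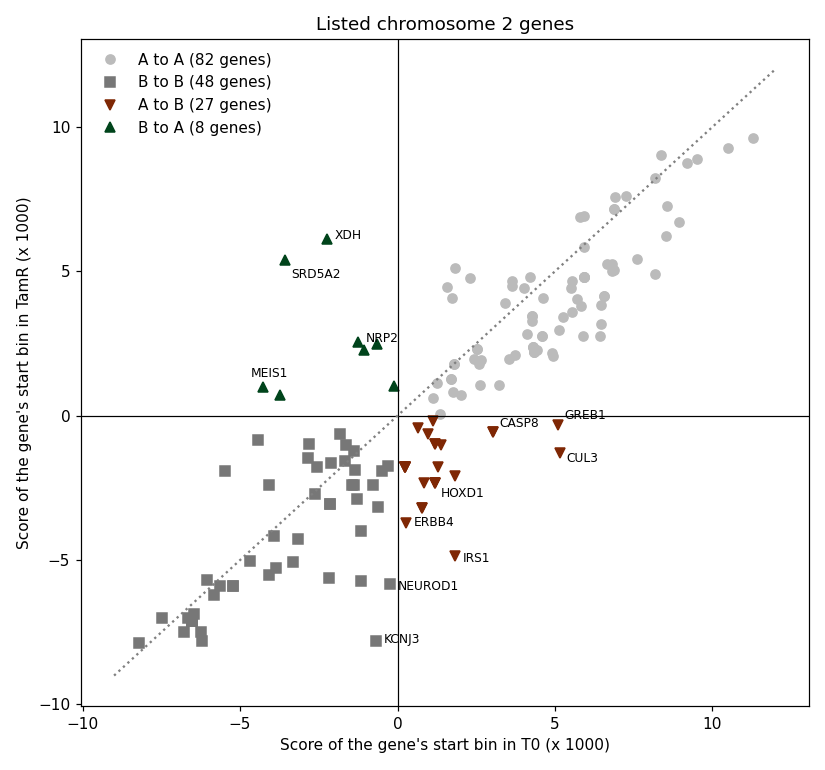
Score (x 1000) of the start bin of the 165 listed chromosome 2 genes in T0 (x axis) and TamR (y axis), with the diagonal of equal score dotted. The 27 genes that left A (triangles down) lie in the lower right and the 8 that entered A (triangles up) in the upper left, SRD5A2 at -3.56 and 5.37 and IRS1 at 1.83 and -4.86.

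Outside the lists, CHRNA1, an acetylcholine receptor subunit, had 3.95 in T0, 4.24 in T1, 4.18 in T4, 3.71 in T16, 3.83 in T24 and -1.39 in TamR, in a block proximal to the HOXD region. CHST10, a sulfotransferase, and PUS10, a pseudouridine synthase, left A in blocks of 1 bin, from 3.98 to -0.307 and from 2.97 to -0.665. ALK, a receptor tyrosine kinase, had -0.649 in T0, 0.247 in T1, 0.791 in T4, 0.980 in T16, -0.311 in T24 and 5.28 in TamR. ETAA1, which activates the replication stress kinase ATR, RDH14, a retinol dehydrogenase, and TEKT4, a tektin of cilia, entered A with TamR scores of 1.39, 0.419 and 2.05 against -3.82, -3.79 and -2.12 in T0.

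Altered bins were intermediate in sequence composition. The median GC content was 42.8% in bins staying in A, 37.3% in bins staying in B, 39.3% in bins leaving A and 39.7% in bins entering it, against 39.3% over all members. Coding gene starts numbered 0.937 per bin in bins staying in A, 0.213 in bins staying in B, 0.582 in bins leaving A and 0.360 in bins entering it. Bins entering A were thus poorer in genes than bins leaving it at nearly equal GC. The HindIII sites (AAGCTT) at which the assay cuts numbered 27.5 per bin in bins staying in A, 31.7 in bins staying in B and 30.9 in both altered classes. The ERBB4 block was AT-rich, with a median GC of 34.6%, and the CRIM1 block had 36.7%, while the IL1R1 block had 42.5%. Whether site density or base composition has a part in the differences was not tested.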

How the data were processed

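Compartments were measured in T47D cells by TCC, a form of Hi-C with ligation on a solid surface, in 6 libraries. According to the study's methods, reads cut at HindIII sites were mapped to hg19, poorly covered bins were removed, contact matrices were corrected iteratively, contacts within chromosomes were set aside, and the first eigenvector was computed with HiCLib. The authors deposited this eigenvector as 1 score per 100 Kb bin, with 0 for bins lacking a value. Signs were used as deposited and scores were multiplied by 1000. Contact counts were not analysed here, so depth and counting error are unknown. Gene positions came from the GENCODE annotation mapped to GRCh37, and sequences from GRCh37 and RefSeq. Of 1069 coding genes with a RefSeq promoter, whose table is in GRCh38.p14, 1054 were placed by exact match in a scored bin. A gene was assigned to the bin of its start.

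With 1 library per condition no test was made. Named were the 6 longest blocks in each direction with at most 10 genes each, listed genes, the 10 coding genes per direction whose bins changed most, 1 per block, and the 3 longest E2 runs of each kind. The bins, lists and rules were chosen with earlier results of these data known. Other borders, bin sizes, filters, centring and references were tried. Python 3.11.15, numpy 2.4.6, pandas 2.3.3, scipy 1.17.1 and matplotlib 3.10.9 were used, and block finding was tested on 20 simulated tracks.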

Additional observations from a re-analysis of the deposited data

How the results depend on the processing

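Of 103 alternative values for 30 results, 57 stayed within the interval or spread of the value given. The p arm mean difference changed sign, to -0.0536 after subtraction of each library's median and to -0.397 as a median over bins, and was 0.393 against the mean of the parental libraries, 0.380 against T1, T4 and T16, and 0.586 against T24. The chromosome 2 difference was -0.804 after that subtraction, -0.820 as a median and -0.216 against T24, and the q arm difference -1.26 after the subtraction, -0.823 without the longest block and -0.707 against T24. The comparisons with T24, with the mean of T1, T4 and T16 and without the longest block were chosen after seeing the data.

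With weakly scored bins left out, 2.50% of bins left A, 4.37% entered A, 0% had changed at each E2 time or followed the flipped and mixed trends, 44% stayed in A and 56% in B. This filter removes bins near 0, where most changes lie, by construction. In 500 Kb bins 8.14% left A between T0 and TamR, the share changed from T0 came to 1.88% for T1, 1.25% for T4, 2.09% for T16 and 3.76% for T24, and the E2 trends were 0.209% to B, 0% to A and 5.64% mixed. With the border at the library median the share in A was 50.7% in T0, 50.9% in T1, 50.7% in T4, 50.4% in T16, 49.8% in T24 and 46.7% in TamR, the E2 trends were 46.5% staying in A and 45.6% in B, and TamR lay below the parental libraries in 61.7% of bins and above them in 22.1%. Without T24, 43.2% of bins stayed in A, 0.978% went to A and 4.04% were mixed. When one sign was required in all 5 parental libraries, 41 blocks left A, 5 of them of at least 5 bins. Under the same rule 30 blocks entered A, 10 of them of at least 5 bins, so long gains outnumbered long losses. With 1 bin bridged, the longest gain had 34 bins. For the other departures the cause was not tested.

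No paired analysis was possible because the conditions are represented by single libraries. The missing replicates and unknown depth limit every comparison, and the scores are relative within a library.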
